A study of Homo sapiens with 6 samples.

Results

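The genes described here are the metallothioneins MT1E, MT1F, MT1G, MT1M, MT1X and MT2A, the zinc-sensing transcription factor MTF1 and the zinc exporter SLC30A1. These 8 genes were picked by name from the 58735 genes of the deposited table, with earlier results of these data known. A count was present for 6 of them, and the same 6 were among the 16116 genes that passed the filter on low counts and were tested. The genes MT1G and MT1M had no count in any sample.

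Metallothioneins are small proteins, rich in cysteine, that bind zinc, copper and cadmium and keep the concentration of free metal ions in the cell low. The transcription factor MTF1 binds short DNA sequences called metal response elements when free zinc rises, and it then induces the metallothionein genes and SLC30A1, whose product (ZnT1) moves zinc out across the plasma membrane. Most human metallothionein genes lie together in a single cluster on chromosome 16, and many of them are also induced by cadmium, oxidative stress and glucocorticoids.

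RNA of MG63 cells, an established human osteosarcoma line, was sequenced in 2 groups of 3 samples, 1 transfected with an siRNA that targets FUBP1 (siFUBP1) and 1 with a negative control siRNA (siMock), to find genes that depend on FUBP1, a protein that binds single-stranded DNA and RNA. RNA was taken 48 h after transfection, no metal or drug was named for these 6 samples, and both groups are given as the same line. Which of the siRNAs against FUBP1 was sequenced is not given in the sources used here, and a single line was used, so a response to 1 siRNA or of 1 line cannot be told apart from a general one. The methods say in general that experiments were repeated independently, but neither they nor the labels tie the 3 samples of a group to separate cultures, so the p-values measure the spread between these samples, which may be technical.

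Each sample held between 16309900 and 17484313 reads counted on genes. FUBP1 (chromosome 1, 77944055 to 77979110, minus strand, GRCh38) had 3872, 4331 and 4282 reads in siMock and 749, 752 and 926 in siFUBP1, a log2 fold change of -2.44. The label of the line was then set against marker genes of osteoblasts and mesenchymal cells. Of 11 such markers, COL1A2 and IBSP, which encode a chain of type I collagen and bone sialoprotein, had no read in any sample. COL3A1, SPARC, SP7, ALPL, BGLAP and COL5A2 had between 2 and 40 reads over the 6 samples together. COL1A1, the other chain of type I collagen, was counted at 113 ± 4.68 and VIM (vimentin) at 149 ± 9.05 CPM (counts scaled to a common library size; SD, n = 3) in siMock. In siFUBP1, COL1A1 was at 45.5 ± 0.150 CPM (SD, n = 3), and the log2 fold changes of COL1A1 and VIM were -1.31 and 0.38. RUNX2, a transcription factor of the osteoblast lineage, had between 6 and 8 reads a sample in siMock and between 39 and 97 in siFUBP1. Of the 11 markers, only COL1A1 and VIM thus had more than 8 reads in any siMock sample. Most of the markers do not bear out the label, and the identity of the line was not tested. Among 8 markers of other cell types, CD3E (T cells) and ALB (hepatocytes) were at 0, and the most abundant was EPCAM, an epithelial adhesion molecule, with between 59 and 83 reads a sample. The summed level of these 8 markers was 9.80, 10.3 and 8.07 CPM in siMock and 8.70, 6.80 and 8.54 CPM in siFUBP1. Of the endothelial markers in this list, PECAM1 had 11, 10 and 7 reads in siMock and 1, 0 and 1 in siFUBP1 and was not tested. CDH5 had 49, 64 and 42 reads in siMock and 29, 36 and 46 in siFUBP1. In CPM its siFUBP1 samples (1.72, 2.08 and 2.63) lay below all siMock samples (3.00, 3.77 and 2.69). Its log2 fold change of -0.56 did not pass (adjusted p = 0.0597, edgeR). All samples are bulk RNA, in which fewer cells of a kind and less RNA per cell cannot be told apart.

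The 6 metallothioneins lie within 119 kb of chromosome 16 (56565049 to 56684196, GRCh38), in a cluster of 16 genes of which 11 are annotated as protein-coding. MT2A lies at 56608199 to 56609497, MT1E at 56625475 to 56627112, MT1M at 56632233 to 56633986, MT1F at 56657694 to 56660698 and MT1X at 56682424 to 56684196, all on the plus strand. MT1G lies at 56666731 to 56668065 on the minus strand. Each of the 6 has 3 exons in its principal transcript and a coding sequence of 61 codons, of which 20 encode cysteine. Their coding sequences share between 88.5% and 95.1% of bases (MT1F with MT1X the least, MT1G with MT2A the most). MTF1 (37809567 to 37859620) and SLC30A1 (211571568 to 211578742) are both on the minus strand of chromosome 1.

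Promoters are shown because the metal response element is the sequence through which MTF1 acts on this family. Its core was searched as TGCACNC and TGCGCNC on both strands, where N is any base, in windows of 300 bases around the gene starts of RefSeq (250 before the start and 50 after, GRCh38.p14). The window was found for 4 of the 8 genes (MT2A, MT1X, MTF1 and SLC30A1). The 250 bases before the start are printed for the most abundant metallothionein, MT2A (chr16:56608334-56608583, plus strand), for the sparsely counted MT1X (chr16:56682220-56682469, plus strand), for MT1H, a metallothionein of the same cluster with no read in any sample (chr16:56669564-56669813, plus strand), and for SLC30A1 (chr1:211579162-211579411, minus strand). Bases are given 5′ to 3′ on the strand of the gene, and capitals mark the cores.
MT2A: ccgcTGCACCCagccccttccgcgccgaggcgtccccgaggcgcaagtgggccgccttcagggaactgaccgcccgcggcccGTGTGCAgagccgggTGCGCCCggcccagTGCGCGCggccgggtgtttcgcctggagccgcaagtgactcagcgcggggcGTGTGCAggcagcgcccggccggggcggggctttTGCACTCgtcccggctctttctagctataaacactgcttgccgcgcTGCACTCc
MT1X: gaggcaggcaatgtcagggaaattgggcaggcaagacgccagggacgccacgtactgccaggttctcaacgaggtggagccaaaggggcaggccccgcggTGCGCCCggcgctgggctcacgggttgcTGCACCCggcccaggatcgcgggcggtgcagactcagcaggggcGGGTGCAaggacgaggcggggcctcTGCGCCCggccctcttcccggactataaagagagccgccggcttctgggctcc
MT1H: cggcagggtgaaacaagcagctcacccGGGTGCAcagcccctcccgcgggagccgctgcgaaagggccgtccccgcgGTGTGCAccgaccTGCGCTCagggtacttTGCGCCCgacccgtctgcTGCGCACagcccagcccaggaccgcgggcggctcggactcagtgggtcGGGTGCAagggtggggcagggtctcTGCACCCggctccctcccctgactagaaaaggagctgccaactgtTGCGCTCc
SLC30A1: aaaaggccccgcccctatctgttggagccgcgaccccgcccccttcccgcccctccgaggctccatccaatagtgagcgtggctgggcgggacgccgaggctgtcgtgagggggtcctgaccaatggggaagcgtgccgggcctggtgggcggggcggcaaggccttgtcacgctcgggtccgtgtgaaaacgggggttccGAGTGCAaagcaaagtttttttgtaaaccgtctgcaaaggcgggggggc

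The windows of MT2A and MT1H each held 8 cores, 5 on the strand of the gene and 3 on the other, a number reached by 6 of the 27305 promoters searched (0.022%). For MT2A, 7 of the 8 lie in the printed stretch, and for MT1H all 8. MT1X held 4 cores, as 0.593% of promoters did at least, and SLC30A1 held 2, as 8.59% did at least, with 1 of them printed. The window of MTF1 held none, while 29.4% of all promoters held at least 1. The letters TATAAA, the core of a TATA box, were found in the windows of MT2A and MT1X, in none of MT1H, MTF1 and SLC30A1, and in 11.95% of all promoters. A match of letters is a description and not a site that was shown to be bound. The RefSeq start lies 385 bases inside the GENCODE gene of MT2A and 419 bases before that of SLC30A1, so these windows depend on the annotation. The windows of MT1B, with no read in any sample, and MT4, with at most 9 reads a sample, each held 3 cores, as 2.27% of promoters did at least. Both of these windows also held the TATA box core.

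Among the metallothioneins, RNA was almost entirely that of MT2A and MT1E. In siMock, MT2A was at 53.2 ± 7.08 and MT1E at 22.9 ± 0.937 FPKM (fragments per kilobase of gene, scaled to the size of the library; SD, n = 3). MT2A held rank 770 of the 16116 tested genes by mean FPKM in siMock, MT1E rank 2111 and SLC30A1, at 24.1 ± 0.912 FPKM, rank 2006. MT1E and SLC30A1 did not differ beyond their spread. MTF1 was at 2.62 ± 0.366 FPKM, and MT1F and MT1X, at 1.296 ± 0.8803 and 1.19 ± 0.268 FPKM, were close to each other and overlapped. The zero counts of MT1G and MT1M allow a level of up to 0.192 CPM in the shallowest sample, from a floor of 3 reads. This limit takes every read of these genes as counted. Of their stretches of 50 bases, 20.2% for MT1G and 7.05% for MT1M also occur in transcripts of other genes.

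**Figure D1:**
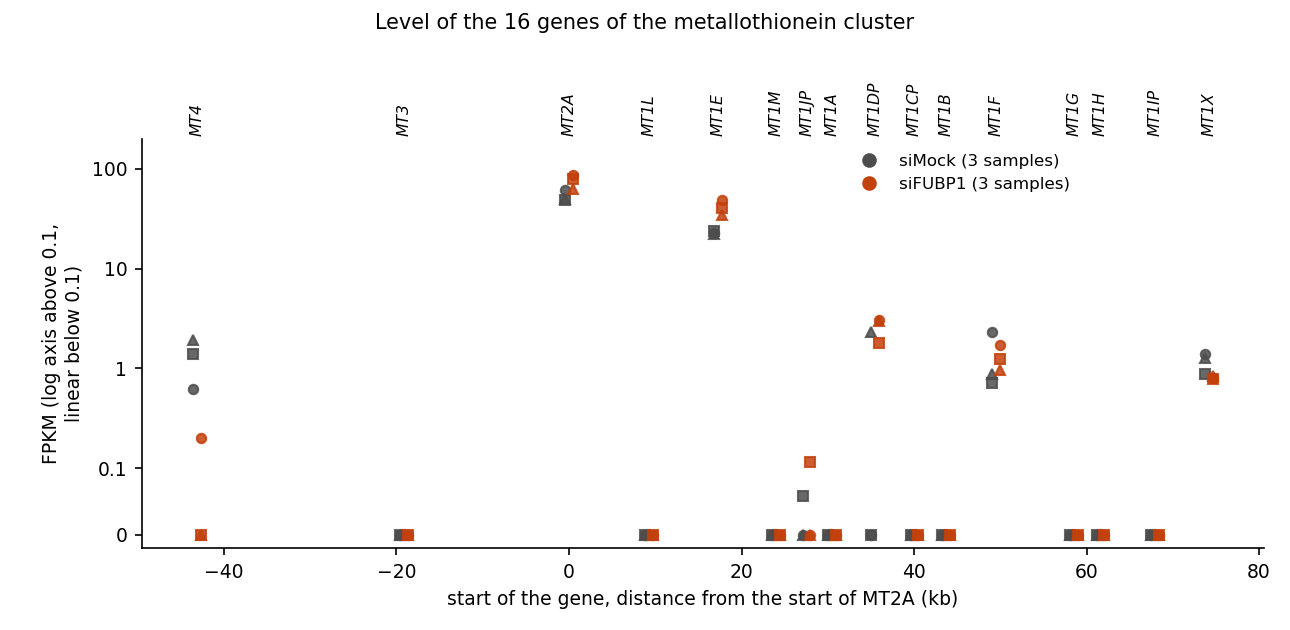
Level of the 16 genes of the chromosome 16 metallothionein cluster in FPKM (log axis above 0.1, linear below) against the distance of each gene's start from that of MT2A in kb, with 1 point for each of the 3 siMock and 3 siFUBP1 samples. MT2A and MT1E stand above 20 FPKM in every sample, MT1F, MT1X, MT1DP and MT4 lie around or below 3 FPKM, MT1JP is near 0, and the other 9 genes are at 0.

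The rest of the family was silent or nearly so. Of 15 further metallothionein genes and pseudogenes, 6 had any read and none was tested. MT1A, MT1B, MT1H, MT3 and MT1HL1, which are annotated as protein-coding, had no read. MT4, a form known from stratified epithelia, had 3, 7 and 9 reads in siMock and 1, 0 and 0 in siFUBP1. The pseudogene MT1DP had 0, 0 and 7 reads in siMock and 10, 6 and 10 in siFUBP1. MT1P1, MT1XP1, MT2P1 and MT1JP, also pseudogenes, had at most 8 reads in any sample. Counts this low were not tested.

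Of the 8 genes, 4 rose in siFUBP1 at an adjusted p below 0.05 (quasi-likelihood test of edgeR, Benjamini-Hochberg adjusted), and 0 fell. The 4 were MT1E, MT2A, MTF1 and SLC30A1, and MT1F and MT1X did not pass. Of all 16116 genes tested, 30.1% were higher and 30.1% were lower by the same rule, 60.2% in either direction. No member passed a log2 fold change of 1 as well, which 8.16% of all genes did upwards and 9.13% downwards. The median log2 fold change of the 6 tested members was 0.43, against 0.0020 for all genes tested. Because the members were chosen with earlier results of these data known, this comparison is a description and not a test of the group.

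MT1E was counted 396, 431 and 367 times in siMock and 861, 741 and 640 times in siFUBP1. The siFUBP1 samples lay above the siMock samples without overlap, and siFUBP1 sample 1 was the highest. Its level rose from 24.4 ± 0.934 to 43.5 ± 7.19 CPM (SD, n = 3). On the log2 scale this was a fold change of 0.83 (standard error, SE, 0.11, 95% interval 0.61 to 1.05), or 1.78-fold, with an adjusted p of 1.94e-07 from edgeR. The spread between siFUBP1 samples was larger than that between siMock samples.

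MT2A had 1316, 1088 and 1015 reads in siMock and 1932, 1771 and 1419 in siFUBP1. In CPM the groups came close without overlapping, at 80.6 for the highest siMock sample (sample 1) and 81.3 for the lowest siFUBP1 sample (sample 3). The mean rose from 69.9 ± 9.32 to 99.3 ± 16.7 CPM (SD, n = 3). On the log2 scale this was a fold change of 0.51 (SE 0.12, 95% interval 0.26 to 0.75), or 1.42-fold, with an adjusted p of 0.00116 from edgeR. As for MT1E, siFUBP1 sample 1 was the highest and sample 3 the lowest of its group.

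MT1F had 72, 23 and 26 reads in siMock and 55, 41 and 32 in siFUBP1. The groups overlapped, and the highest value of all was siMock sample 1. Both groups had a mean of 2.48 CPM (SD 1.68 in siMock and 0.719 in siFUBP1, n = 3), and the 95% interval of the log2 fold change ran from -0.80 to 0.80 (adjusted p = 0.995, edgeR). Without siMock sample 1 the log2 fold change was 0.71, with an adjusted p of 0.0689 from edgeR. The interval holds the estimate of MT2A, so a change of that size in MT1F could not be told from none.

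MT1X was the only tested member with a negative estimate in edgeR. It had 41, 27 and 36 reads in siMock and 24, 24 and 26 in siFUBP1, or 2.14 ± 0.485 and 1.43 ± 0.0535 CPM (SD, n = 3). All siFUBP1 samples lay below all siMock samples, which was the case for 31.7% of the genes tested, and the gap between the nearest samples was from 1.59 to 1.49 CPM. The log2 fold change of -0.57 (SE 0.30, 95% interval -1.19 to 0.05) did not pass the test, at an adjusted p of 0.105 from edgeR. Its counts are also uncertain, because 165 of the 450 bases of its principal transcript lie in AC026461.1, a noncoding gene of the same strand with no count in any sample. Of the stretches of 100 bases in the MT1X transcript, 19.1% also occur in transcripts of other genes, against 0% for MT1E, MT1F and MT2A. Of stretches of 50 bases, 45.1% do so for MT1X, 5.34% for MT1E, 3.59% for MT1F and 4.89% for MT2A. AC026461.1 is among these other genes, so the shares of MT1X are not separate from the overlap above. The read length is not given in the sources used here. How reads shared between genes were counted is not given in the sources used here.

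**Figure D2:**
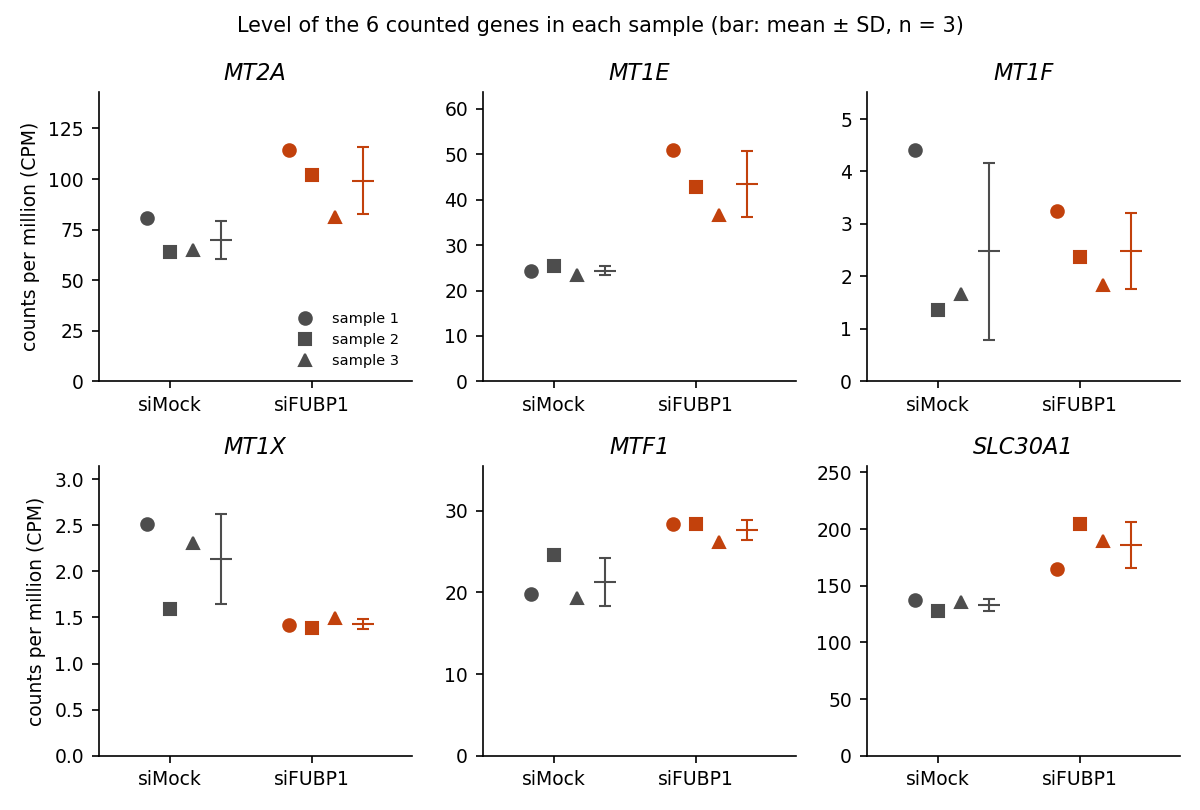
CPM of the 6 counted genes in each sample (marker shape: sample 1, 2 or 3 of its group), with the mean ± SD of each group beside the points (n = 3). The siFUBP1 samples of MT2A, MT1E, MTF1 and SLC30A1 lie above all siMock samples, those of MT1X lie just below, and those of MT1F fall within the siMock range of 1.35 to 4.41 CPM.

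The sensor MTF1 had 324, 418 and 301 reads in siMock and 479, 492 and 457 in siFUBP1. No siMock sample reached the siFUBP1 samples, the nearest being siMock sample 2 at 24.6 CPM against 26.2 CPM. The level rose from 21.2 ± 2.92 to 27.6 ± 1.26 CPM (SD, n = 3). On the log2 scale this was a fold change of 0.38 (SE 0.11, adjusted p = 0.00338, edgeR). This was the smallest estimate of the 4 members that rose.

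The exporter SLC30A1 had 2238, 2163 and 2119 reads in siMock and 2776, 3545 and 3313 in siFUBP1. Again the groups did not overlap, but here siFUBP1 sample 1, the highest for MT1E and MT2A, was the lowest of its group. The level rose from 133 ± 5.33 to 186 ± 20.3 CPM (SD, n = 3). On the log2 scale this was a fold change of 0.48 (SE 0.082, 95% interval 0.31 to 0.65), or 1.40-fold, with an adjusted p of 1.58e-05 from edgeR. The order of the siFUBP1 samples for the exporter thus differed from that for MT1E and MT2A. For 4 of the 6 tested members all siFUBP1 samples lay above all siMock samples, which 32.2% of all tested genes showed.

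The summed level of all metallothionein genes and pseudogenes was 91.4, 76.7 and 79.8 FPKM in siMock and 144, 125 and 102 FPKM in siFUBP1. The groups did not overlap, and the ratio of the means was 1.497. Taken per kilobase of the principal transcript instead, since the deposited length joins the exons of all transcripts and is 3.94 times the principal transcript for MT1X, the ratio was 1.47. MT2A and MT1E together made up 92.1 ± 2.69% of the summed FPKM in siMock and 94.6 ± 0.682% in siFUBP1 (SD, n = 3; exact permutation test, two-sided, p = 0.3), with overlapping groups. On CPM, at 94.5 ± 1.49% and 96.7 ± 0.195%, and per kilobase of the principal transcript, at 90.9 ± 2.38% and 94.2 ± 0.473%, the groups did not overlap (n = 3; exact permutation p = 0.1 on both scales).

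Within this sum the share of MT1E was 24.9%, 31.1% and 27.6% in siMock and 33.4%, 32.5% and 33.8% in siFUBP1. All siFUBP1 shares were above the siMock shares, with means of 27.9 ± 3.11% and 33.2 ± 0.667% (SD, n = 3). The exact permutation test, two-sided, gave p = 0.1, the smallest value that 3 samples against 3 allow, so the design cannot pass 0.05 here. The share of MT2A was 64.2 ± 2.68% in siMock and 61.4 ± 1.28% in siFUBP1 (n = 3; exact permutation p = 0.2), and the groups overlapped. On CPM the shares of MT2A, 71.6%, 68.9% and 69.2% in siMock and 66.8%, 68.4% and 66.6% in siFUBP1, did not overlap (exact permutation p = 0.1). The share of MT1X was 1.43 ± 0.241% in siMock and 0.663 ± 0.136% in siFUBP1, without overlap (n = 3; exact permutation p = 0.1), and per kilobase of the principal transcript it was 3.47 ± 0.586% and 1.63 ± 0.332%. The share of MT1F gave an exact permutation p of 0.7. The ratio of MT1E to MT2A in CPM was 0.301, 0.396 and 0.362 in siMock and 0.446, 0.418 and 0.451 in siFUBP1, again without overlap (n = 3; exact permutation p = 0.1). Over the 6 permutation tests of shares in FPKM and of this ratio the lowest adjusted p was 0.2, and the shares of a sample depend on each other.

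**Figure D3:**
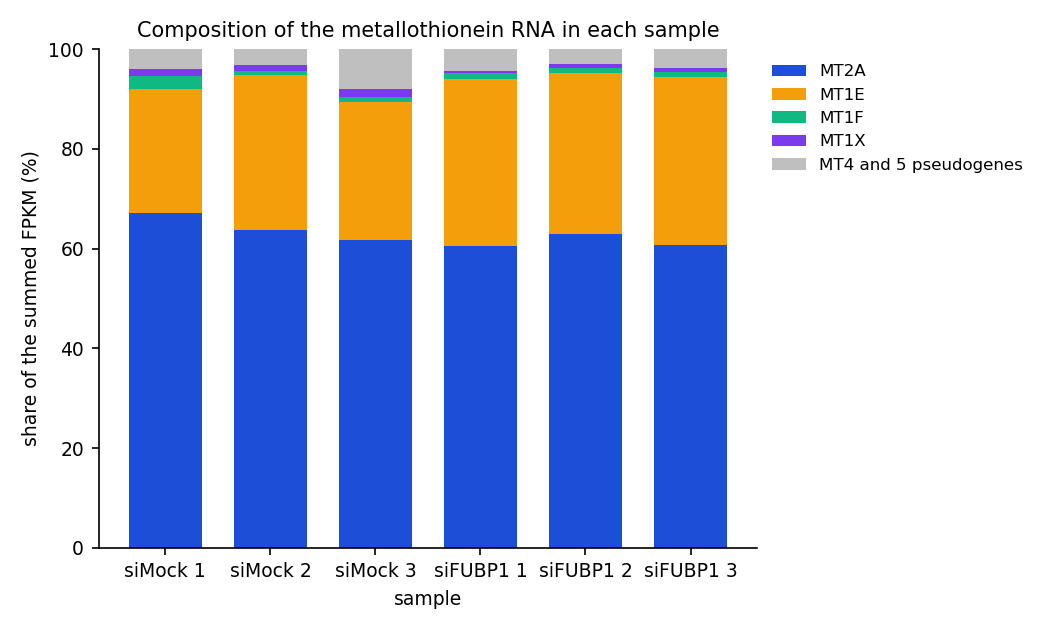
Share of each metallothionein in the summed metallothionein FPKM of each sample, in percent, stacked to 100 for the 3 siMock and 3 siFUBP1 samples. MT2A takes between 60.6% and 67.1% and MT1E between 24.9% and 33.8% of every sample, and the grey block, MT4 and 5 pseudogenes, rests on at most 10 reads per gene and sample.

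Zinc is moved out of the cytosol by the SLC30 family, into vesicles, the Golgi or out of the cell, and into it by the SLC39 family. Besides SLC30A1, 6 of 10 further exporters and vesicle loaders were tested, of which 3 rose, 2 fell and 1 did not pass, with a median log2 fold change of 0.055. The counts of this and of the following lists stand against 30.1% higher and 30.1% lower among all genes tested, so calls in both directions are not particular to a list. SLC30A7 and SLC30A5, which load zinc into the early secretory pathway, rose by 0.49 (adjusted p = 5.74e-06, edgeR) and 0.19 (adjusted p = 0.0460, edgeR) on the log2 scale. SLC30A5 lost its call in DESeq2, at an adjusted p of 0.0518, and in 6 further settings. SLC30A9, named as a zinc transporter of mitochondria, fell by 0.66 (adjusted p = 3.04e-07, edgeR). SLC30A3, a loader of synaptic vesicles, fell by 1.40 from a low level of 1.71 ± 0.462 to 0.638 ± 0.304 CPM (SD, n = 3; adjusted p = 0.00329, edgeR), and by 0.21 with limma on log2(FPKM + 1).

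Of 14 importers, 10 were tested, with 4 higher, 3 lower and 3 that did not pass, and a median of -0.16. SLC39A6, an importer of the plasma membrane, had the largest rise, from 43.2 ± 3.81 to 102 ± 8.95 CPM (SD, n = 3). On the log2 scale this was a fold change of 1.24 (SE 0.089, adjusted p = 5.84e-12, edgeR). SLC39A7, which releases zinc from the endoplasmic reticulum, rose by 0.97 (adjusted p = 5.89e-11, edgeR), from 186 ± 12.6 to 364 ± 15.9 CPM. SLC39A14, which also carries iron and manganese, rose by 0.51 (adjusted p = 3.00e-06, edgeR). SLC39A3, SLC39A8 and SLC39A13 fell by 0.40, 0.29 and 0.40.

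**Figure D4:**
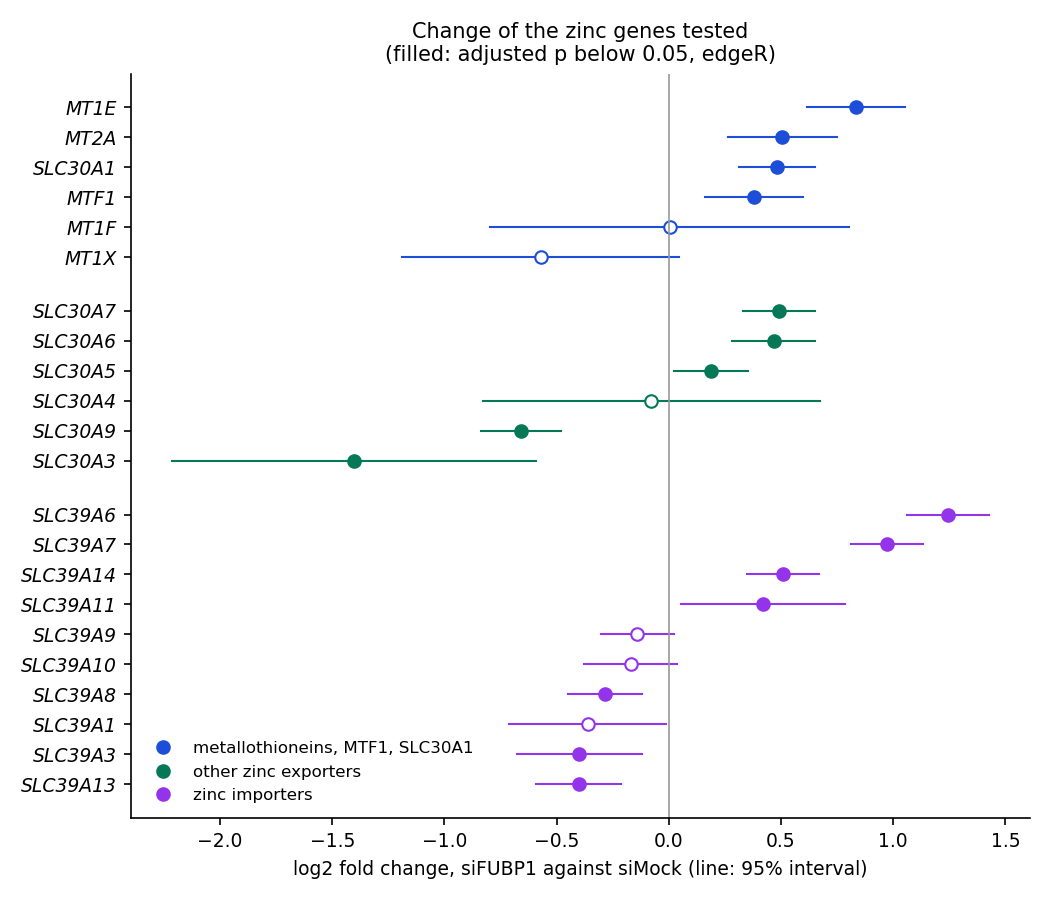
Log2 fold change of siFUBP1 against siMock with its 95% interval for the 6 tested members, 6 further zinc exporters and 10 zinc importers, with filled points for an adjusted p below 0.05 (edgeR). MT1E, MT2A, SLC30A1 and MTF1 lie between 0.38 and 0.83, SLC39A6 reaches 1.24 and SLC30A3 stands at -1.40.

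Metallothioneins also bind copper, and 13 of 16 genes of copper handling were tested. Of these 6 rose, 3 fell and 4 did not pass (median 0.12). SLC31A1, the copper importer of the plasma membrane, rose by 0.72 (adjusted p = 8.89e-08, edgeR), and SOD1, the copper- and zinc-containing superoxide dismutase, by 0.34. CUTC and CUTA, named for relatives in bacterial copper tolerance, rose by 1.31 and 0.30. STEAP4, a reductase of iron and copper, had the largest change of the list and fell by 2.98, from 190 ± 9.80 to 24.0 ± 3.15 CPM (SD, n = 3; adjusted p = 1.75e-18, edgeR).

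Among 9 other transcription factors and cofactors that act on metal- or stress-responsive promoters, all tested, 3 rose, 4 fell and 2 did not pass (median -0.29). BACH1, a repressor of genes induced by heme and oxidative stress, rose by 1.10 (adjusted p = 1.25e-11, edgeR). NFE2L2 (NRF2) and NFE2L1, activators at antioxidant response elements, rose by 0.49 and 0.40, and with the GC and length trend taken out NFE2L1 rose by 0.63. SP1, a general activator of GC-rich promoters, fell by 0.53 (adjusted p = 1.61e-06, edgeR).

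Cadmium and other metals also induce genes outside the family. Of 11 such genes, all tested, 4 rose, 6 fell and 1 did not pass, with a median of -0.74. HMOX1, heme oxygenase 1, had a log2 fold change of -1.10 (69.9 ± 7.05 to 32.6 ± 0.553 CPM, SD, n = 3; adjusted p = 7.70e-11, edgeR). SRXN1 (sulfiredoxin) had -1.40 (-0.86 with limma on log2(FPKM + 1)), HSPB1 (the small heat shock protein HSP27) -0.95, or -0.63 with the GC and length trend taken out, and DNAJB1, a co-chaperone, -0.74. The heat shock genes HSPA1A and HSPA1B had -2.33 and -2.27, and because they are near-identical copies, the split of reads between them is uncertain. SLC7A11, the cystine importer that feeds glutathione synthesis, rose by 1.161 (adjusted p = 3.23e-11, edgeR), while TXNRD1, thioredoxin reductase and the most abundant gene of the list, had a log2 fold change of 0.042 with overlapping groups.

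Glucocorticoids are a further inducer of metallothioneins. Of 10 genes, the receptor and targets, 9 were tested, with 6 higher, 2 lower and 1 that did not pass (median 0.37). NR3C1, the glucocorticoid receptor, rose by 1.26 from 67.1 ± 2.36 to 161 ± 9.80 CPM (SD, n = 3; adjusted p = 3.50e-13, edgeR). ERRFI1, a feedback inhibitor of the EGF receptor, rose by 1.07. DUSP1, a phosphatase of MAP kinases and the most abundant target listed, fell by 0.54 (adjusted p = 1.46e-06, edgeR).

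**Figure D5:**
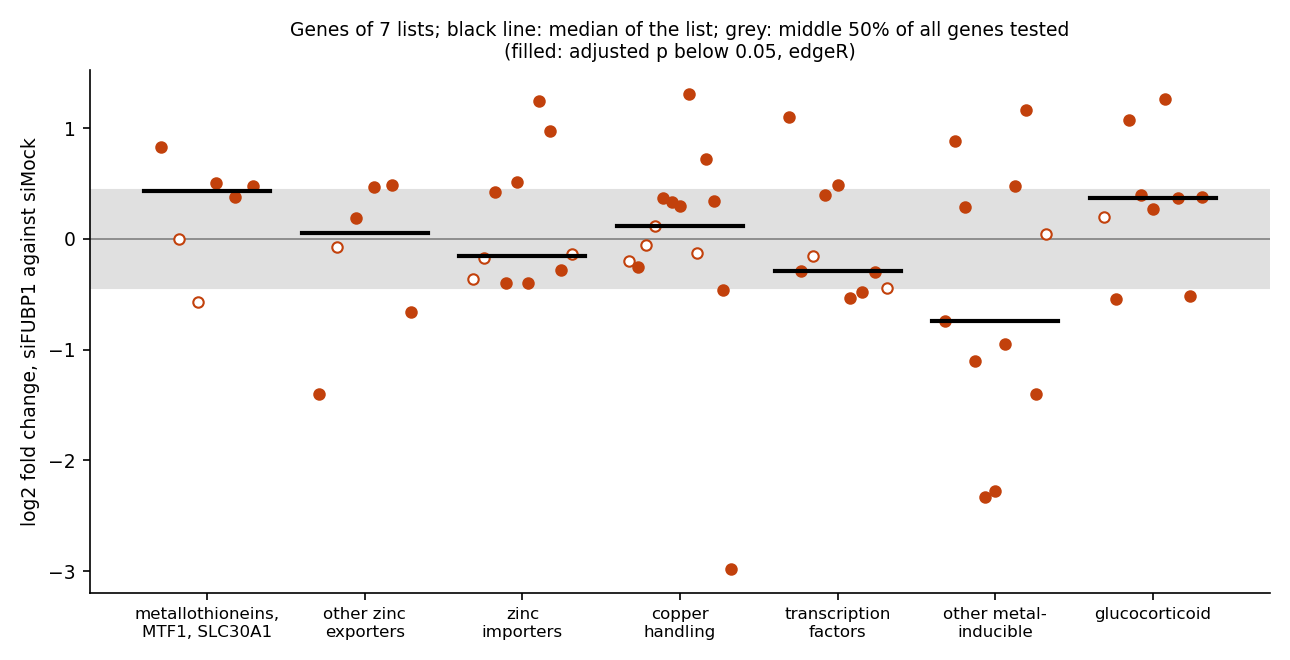
Log2 fold change of siFUBP1 against siMock for each tested gene of the 7 lists, with the list's median as a black line, the middle 50% of all 16116 tested genes in grey and filled points for an adjusted p below 0.05 (edgeR). The medians run from -0.74 for the other metal-inducible genes to 0.43 for the metallothioneins with MTF1 and SLC30A1.

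The genes whose profile over the 6 samples was nearest to that of MT2A were sought among the 10444 protein-coding genes whose mean count reached 100, by Euclidean distance between centred log2 CPM values. They were POLD4, SMDT1, SPACA9, ZBTB17 and B4GALT7, on chromosomes 11, 22, 9, 1 and 5, at distances from 0.177 to 0.214. POLD4 encodes a small subunit of DNA polymerase delta, SMDT1 a subunit of the mitochondrial calcium uniporter and B4GALT7 an enzyme of proteoglycan synthesis. MT1E held rank 990, MTF1 rank 1598 and SLC30A1 rank 1671 of the 10444 genes in this order. The metallothionein next to MT2A in level was thus not among the 5 nearest. The values were centred but not scaled, so the distance also counts the size of a change. That size was 0.83 for MT1E and 0.51 for MT2A on the log2 scale. All 6 samples enter each distance, and the distance is a description.

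The genes that flank the cluster were counted in every sample. BBS2, a component of the complex that carries proteins to the primary cilium, lies before the cluster and had 697, 645 and 699 reads in siMock and 1114, 1199 and 1074 in siFUBP1, and its log2 fold change was 0.65 (SE 0.088, edgeR). NUP93, a nuclear pore protein, lies after it and had 1483, 1488 and 1299 reads in siMock and 1485, 1463 and 1523 in siFUBP1, with overlapping groups. The silent genes MT1M, MT1A, MT1B, MT1G and MT1H lie between MT1E and MT1X, so the counted metallothioneins do not form an unbroken block.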

How the data were processed

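The authors sequenced poly-A RNA libraries made with a kit that does not mark strand. The read counts per gene were deposited by the authors, not normalized. The submitters' processing notes name HISAT2 2.0.5, StringTie 1.3.3b, featureCounts 1.5.0-p3 and DESeq2 1.16.1; the strand setting and the treatment of reads matching several genes are not given in the sources used here. The authors derived FPKM from counts and the deposited gene length, which is the union of exons of GENCODE 29 (GRCh38) for all 58735 genes. The authors' group means, log2 fold changes and p-values were not used.

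Counts were tested with edgeR 4.0.16 (R 4.3.3): TMM, expression filter, robust quasi-likelihood test, Benjamini-Hochberg adjustment over 16116 genes. TMM factors lay between 0.959 and 1.05, the common dispersion was 0.00684, and 3 reads equal 0.172 to 0.192 CPM. Limits cover counting error only. No 2 samples were identical, and all pairs differed beyond sampling noise (chi-square per gene 5.37 or more). Tested on simulated data for siFUBP1 against siMock (15825 genes, 200 changed), edgeR recovered 62.7% of changes of 0.5, 85.1% of 1 and 100% of 2 on the log2 scale, with 4 false calls. Far fewer genes changed in the simulation than the 60.2% called in these data, so its figures do not carry over directly. Sequences come from GENCODE 29 transcripts and RefSeq promoters.

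The members and lists were chosen with earlier results of these data known. Named are all 8 members, any other metallothionein passing the filter (none did), from each list the genes past an adjusted p of 0.05 and a log2 fold change of 1 in size plus the 3 with the highest mean FPKM, FUBP1, and the 5 genes nearest in profile to MT2A; others (SLC39A3, SLC39A8, SLC39A13, BBS2, NUP93, AC026461.1, the untested metallothioneins and the markers) were added after their values were seen or as checks. Alternatives tried were other scalings and filters, DESeq2 1.42.0, limma 3.58.1 on log2(FPKM + 1) and log2(FPKM + 0.1), a GC and length trend, a replicate block and leaving out each sample.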

Additional observations from a re-analysis of the deposited data

How the results depend on the processing

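Over the 16 alternatives tried, MT1E kept a log2 fold change of 0.71 to 0.94 (highest adjusted p 3.14e-04), MT2A 0.40 to 0.63 (0.0202), MTF1 0.29 to 0.50 (0.0237) and SLC30A1 0.39 to 0.58 (0.00163), each past the threshold of its test throughout. MT1F, never past the threshold, ran from -0.30 without siMock replicate 2 to 0.71 without siMock replicate 1 (adjusted p between 0.0689 and 0.996), and was also negative without siMock replicate 3 (-0.21) and without siFUBP1 replicate 1 (-0.23). MT1X ran from -0.75 to -0.27, and passed with limma on log2(FPKM + 1) (-0.27, adjusted p = 0.0484) alone, the cause of which was not tested. TXNRD1, never past the threshold, ran from -0.049 without siMock replicate 1 to 0.088 without siMock replicate 2 among the settings that leave out a sample, and reached 0.14 with library size alone. NUP93, at -0.012 in edgeR with TMM, was 0.031 with upper-quartile factors, 0.085 with library size alone, 0.0033 without the filter, 0.11 with the GC and length trend, -0.050 without siMock replicate 3, 0.012 without siMock replicate 1 and 0.013 without siFUBP1 replicate 2. With library size alone the median of all genes was 0.099 in place of 0.0020, and 5698 genes were higher and 4121 lower, and with the GC and length trend 5724 and 4130. SPACA9 lost its call in 8 settings. With limma on log2(FPKM + 1), which shrinks the changes of low genes, 462 genes were called above a log2 fold change of 1 and 588 below -1, against 1315 and 1472. Over the 6 lists of tested genes besides the members, 26 genes were higher and 20 lower, and 6 and 6 with an absolute log2 fold change above 1 as well. In CPM the share of MT1E was 24.6% in siMock and 29.5% in siFUBP1 and that of MT2A 69.9% and 67.3%; per kilobase of the principal transcript, a setting chosen after seeing the data, the siFUBP1 shares were 30.96% and 63.3%. Same-numbered samples did not deviate together (correlations of -0.0047, 0.017 and 0.12), so the numbers do not pair the samples; with the replicate number as a block, 5013 genes were higher and 5001 lower. MT1F and MT1X rest on between 23 and 72 reads a sample; what part depth and the spread between samples have in their wide intervals was not tested.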
